A study of Mus musculus with 8 samples.

Results

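The genes described here are those of the interferon response in white adipocytes: genes that interferons are known to induce, the interferon regulatory factors (IRFs) and the signal transducers and activators of transcription (STATs). They were chosen by name, as the protein_coding genes of the deposited table whose Ensembl symbol begins with Ifi, Oas, Gbp, Isg, Irf, Stat or Irgm in the patterns of these families, or equals Igtp, Rsad2, Bst2, Usp18 or Zbp1. This gave 73 members among 30387 genes, 17824 of them protein_coding, on 15 chromosomes. The rule also takes in genes that share a prefix without being interferon-induced genes by their known role, such as the 3 IRF2-binding proteins Irf2bp1, Irf2bp2 and Irf2bpl. RNA came from primary epididymal white adipocytes. The mice were wild-type (WT) or Ad-Yap/Taz-KO (KO), the latter homozygous for floxed Yap (Yap fl/fl) and floxed Taz (Taz fl/fl) with a Cre recombinase under the adiponectin promoter (Adipoq-Cre), so that deletion was directed to adipocytes of every fat depot. The mice were fed normal chow (NC) or a high-fat diet (HFD) for 4 weeks. The series description starts the diets at week 5 of age, and the methods of the study at a later age. WT mice were littermates of the KO mice. Each of the 4 groups, WT NC, KO NC, WT HFD and KO HFD, holds 2 libraries, so both values are given throughout in place of a mean and SD.

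Interferons are secreted proteins that cells release when sensors such as Ifih1 find viral or misplaced nucleic acid. Type I interferons bind a receptor made of Ifnar1 and Ifnar2, and the kinases Jak1 and Tyk2 then activate STAT proteins, which join Irf9 and bind a DNA element called the interferon-stimulated response element (ISRE). Interferon gamma signals through Ifngr1 and Ifngr2 to STAT dimers that bind the gamma-activated site (GAS). The genes that respond include Ifit and Oas proteins, which act on viral RNA, the guanylate-binding proteins (Gbp) and immunity-related GTPases (Irgm1, Irgm2, Igtp, Ifi47), which act on membranes around intracellular microbes, and DNA sensors of the PYHIN family (Ifi202b to Ifi205). In fat, Irf4 is known for promoting lipolysis, Stat5 for adipocyte differentiation, and Irf5 for the inflammatory state of macrophages.

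The start-site sequences of several members are shown because they hold letters that match the ISRE, and those of Irf5 and Oasl1 because they lack them. RefSeq windows (GRCm38.p6) of 300 bases, from 250 before to 50 after a start, were found for 58 of the 73 members, 73 windows in all. The letters TTTCNNTTTC, or GAAANNGAAA on the other strand, with overlapping matches counted, stood in 29 of these 73 windows (39.7%) and in 1131 of all 32851 windows (3.44%). The palindromic GAS letters TTCNNNGAA stood in 16 of the 73 windows (21.9%) and in 8.3% of all windows. The lines show bases upstream of the start, 5′ to 3′ on the strand of the gene, with the ISRE letters in capitals.
Ifit1 (chr19:34640749-34640888, + strand): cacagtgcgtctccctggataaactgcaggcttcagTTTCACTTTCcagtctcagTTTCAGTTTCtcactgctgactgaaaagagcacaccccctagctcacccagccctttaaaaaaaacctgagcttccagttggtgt
Ifit3 (chr19:34583329-34583528, + strand): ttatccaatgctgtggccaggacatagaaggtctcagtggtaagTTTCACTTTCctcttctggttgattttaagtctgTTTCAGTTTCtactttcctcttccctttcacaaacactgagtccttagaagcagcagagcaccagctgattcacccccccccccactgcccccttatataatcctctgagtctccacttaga
Ifit3b (chr19:34607757-34607956, + strand): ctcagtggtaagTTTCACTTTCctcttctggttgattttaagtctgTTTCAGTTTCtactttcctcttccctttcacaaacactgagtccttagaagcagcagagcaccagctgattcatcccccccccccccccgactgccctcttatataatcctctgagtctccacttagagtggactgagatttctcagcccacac
Isg15 (chr4:156200819-156201018, - strand): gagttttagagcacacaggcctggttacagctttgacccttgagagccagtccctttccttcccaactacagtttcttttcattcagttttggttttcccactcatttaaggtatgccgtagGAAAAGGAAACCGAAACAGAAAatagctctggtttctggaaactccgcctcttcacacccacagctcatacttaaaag
Rsad2 (chr12:26456453-26456652, - strand): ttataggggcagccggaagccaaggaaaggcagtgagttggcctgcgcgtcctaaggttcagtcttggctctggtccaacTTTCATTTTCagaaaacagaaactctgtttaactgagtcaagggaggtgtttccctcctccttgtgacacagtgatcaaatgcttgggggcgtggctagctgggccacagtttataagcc
Oas1a (chr5:120907526-120907725, - strand): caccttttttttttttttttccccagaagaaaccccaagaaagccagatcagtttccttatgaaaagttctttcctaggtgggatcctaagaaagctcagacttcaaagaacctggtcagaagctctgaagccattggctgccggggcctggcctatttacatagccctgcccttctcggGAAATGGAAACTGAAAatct
Irf5 (chr6:29526425-29526624, + strand): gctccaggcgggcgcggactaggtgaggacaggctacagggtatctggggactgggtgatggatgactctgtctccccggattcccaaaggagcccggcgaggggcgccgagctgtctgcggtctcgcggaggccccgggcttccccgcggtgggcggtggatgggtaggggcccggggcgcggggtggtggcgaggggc
Oasl1 (chr5:114923040-114923239, + strand): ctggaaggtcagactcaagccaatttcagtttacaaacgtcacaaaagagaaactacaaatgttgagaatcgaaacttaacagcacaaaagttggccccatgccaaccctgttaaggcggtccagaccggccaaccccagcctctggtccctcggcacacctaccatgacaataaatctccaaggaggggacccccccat
The window of Ifit1 holds 2 matches, and it overlaps a window of Ifit1bl2, the gene that starts nearby on the opposite strand. The Ifit3 and Ifit3b windows share a run of 169 identical bases with 2 matches each. Isg15 holds 3 overlapping matches, Oas1a 2 and Rsad2 1. No match stands in the windows of Irf5 and Oasl1, nor in those of Ifi30, Oasl2, Ifi47, Irf9, Ifitm1 and Isg20l2, which were also called higher in KO on HFD. This says only that these letters are not there.

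The libraries held 13.99 to 22.32 M reads on genes, estimated from the spacing of low values, and 1 read was worth 0.7954 to 1.135 normalized counts (the authors' gene counts divided by a size factor for each library). Absolute log2 differences between the 2 libraries of a group, as medians over 12093 genes with a mean of at least 50, were 0.207 in WT NC, 0.298 in KO NC, 0.151 in WT HFD and 0.294 in KO HFD, so the WT HFD pair lay closest together. These values do not show whether that pair came from separate mice, and the p-values of the comparisons with WT HFD count it as 2 samples. Wwtr1, which encodes TAZ, read 5594 and 4743 normalized counts in WT NC, 2441 and 1957 in KO NC, 7121 and 6807 in WT HFD and 2060 and 2707 in KO HFD. Yap1 read 2776 and 2717, 1669 and 1699, 2468 and 2333, and 1549 and 2068 in the same order of groups. Both were lower in KO than in WT libraries on either diet, without overlap, and neither was absent. By the limits given below, both were called lower in KO on NC. On HFD 1 was called lower, and the log2 difference of Yap1, at -0.423, fell short of the size needed. Adipoq, which marks adipocytes, read 13284 to 54830 in the 8 libraries, and the sum of 9 adipocyte markers was 287497 and 303228 in WT NC, 245795 and 320900 in KO NC, 370884 and 362160 in WT HFD and 173425 and 93474 in KO HFD. RNA of other cells was present too. The sum of 10 macrophage markers was 4848 and 4783 in WT NC, 29030 and 16076 in KO NC, 2199 and 2267 in WT HFD and 31273 and 28760 in KO HFD, with Fcgr1 at 0 in 1 WT HFD library. Bulk RNA cannot tell fewer cells of a type from less RNA per cell.

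On HFD, most interferon-related genes that differed between the genotypes were higher in the KO libraries. Of 68 members tested, 27 were called higher and 4 lower, where a call needs a limma p of at most 0.05 after Benjamini-Hochberg adjustment over all 18800 genes tested and a log2 difference of at least 0.59. Over all genes tested 32.2% were called in this comparison, 17.1% higher and 15.1% lower. The median log2 difference was 0.625 over the members and 0.095 over all genes. Among members whose mean across libraries reached 50, the largest rises were those of Oasl1, Irf5 and Ifi30, and antiviral genes (Oas2, Isg15, Ifit1, Oasl2, Rsad2), the PYHIN genes Ifi203, Ifi204 and Ifi205 and the GTPase Ifi47 came next. Of the members below that mean, Oas3 and Stat4 were called with fitted log2 differences of 4.24 and 3.22, which rest on WT values of 0 and 1 and of 8 and 0. In 42 of the 68 members both KO libraries lay above both WT libraries, in 13 they lay below, and in 13 the groups overlapped. Over all genes tested, 36.5% stood above in this way and 33.0% below.

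**Figure D1:**
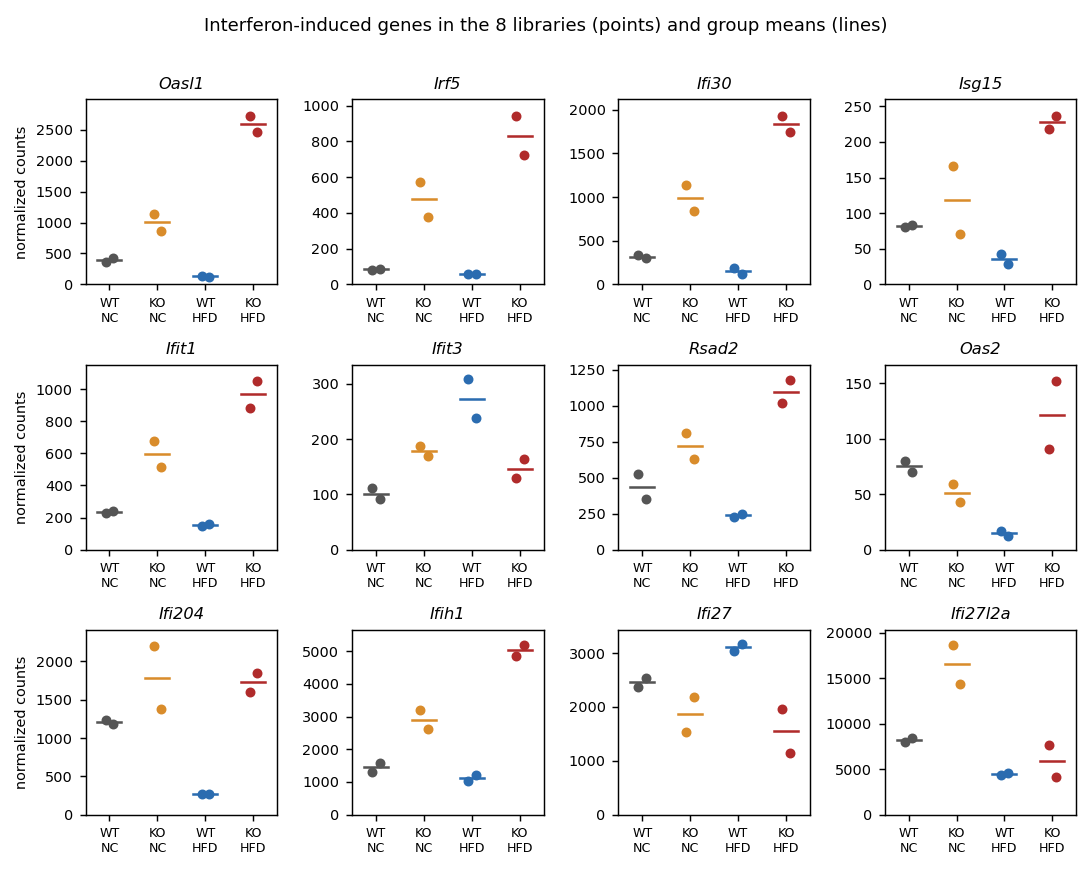
Normalized counts (vertical axes, from 0) of 12 interferon-induced genes in the 8 libraries, with points for libraries and lines for the means of the 4 groups. Ad-Yap/Taz-KO libraries on HFD sit highest for Oasl1, Irf5, Ifi30, Isg15, Ifit1, Rsad2, Oas2 and Ifih1, whereas WT libraries on HFD sit highest for Ifit3 and Ifi27.

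Oasl1 (ENSMUSG00000041827, chr5:114923240-114937915), an OAS-like protein that restrains translation of Irf7 mRNA, read 141 and 116 normalized counts in WT HFD and 2723 and 2467 in KO HFD. It was 20.1-fold higher in KO (log2 difference 4.33, SE 0.20, limma adjusted p = 3.1e-08), with a wide gap between the groups. Oas2, one of the synthetases that make the 2-5A messenger upon binding double-stranded RNA, read 17 and 12 in WT and 91 and 152 in KO (log2 difference 2.96, SE 0.46, limma adjusted p = 0.00038). For Oasl2, a second OAS-like gene, the readings were 87 and 49 in WT and 385 and 392 in KO, a 5.87-fold difference (limma adjusted p = 5e-05). In the OAS family 5 of the 7 tested genes were called higher on HFD and none lower, with a median log2 difference of 2.96. The low members Oas1a (14 and 10 against 82 and 63) and Oas3 (0 and 1 against 41 and 16) are among those 5. A value of 0 in a library allows up to 3 reads, 2.39 to 3.4 normalized counts across the libraries.

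Isg15, a ubiquitin-like modifier, read 42 and 28 in WT HFD and 218 and 237 in KO HFD (log2 difference 2.69, SE 0.42, limma adjusted p = 0.00038). Rsad2 (viperin), an enzyme that makes a chain-terminating nucleotide, read 229 and 246 against 1017 and 1178, a 4.6-fold difference (limma adjusted p = 1.3e-05). Ifih1 (MDA5), the cytosolic sensor of long double-stranded RNA, read 1033 and 1218 against 4863 and 5178. For these genes the lowest KO library stood above the highest WT library. By contrast Usp18, the protease that removes Isg15 from proteins and damps the interferon receptor, read 69 and 61 against 62 and 91, and Bst2, which tethers virus particles, read 115 and 137 against 137 and 127. Neither gene was called, and their groups overlapped.

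Among the PYHIN genes, whose human relatives include the DNA sensor IFI16, Ifi204 (ENSMUSG00000073489, chr1:173747293-173766943) read 269 and 274 in WT HFD and 1602 and 1854 in KO HFD (log2 difference 2.66, SE 0.21, limma adjusted p = 1.5e-06). Ifi203 read 337 and 394 against 1870 and 2124, and Ifi205 read 421 and 446 against 1431 and 2697, which made them 5.46-fold and 4.53-fold higher (limma adjusted p = 8.8e-06 and 2.3e-05). The fourth gene of this cluster on chromosome 1, Ifi202b, scattered within groups, from 13 and 8 in WT NC to 30 and 410 in KO NC, 90 and 115 in WT HFD and 24 and 660 in KO HFD, and was called in no comparison. These genes are near copies of each other, and reads that aligned to several places were not counted, so their division between the genes is uncertain.

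Ifi30 (GILT), a thiol reductase of lysosomes used in antigen processing, read 187 and 123 in WT HFD and 1927 and 1742 in KO HFD. It was higher in KO (log2 difference 3.59, SE 0.23, limma adjusted p = 3.3e-07). Irf5 (ENSMUSG00000029771, chr6:29526625-29541871), a regulator of inflammatory cytokine genes, read 56 and 59 against 942 and 723 and was 14.1-fold higher (log2 3.82, SE 0.27, limma adjusted p = 7.1e-07). Exons of Tnpo3 on the opposite strand cover 14.1% of the exon bases of Irf5, and whether the counting used the strand was not given in the sources used here. All 10 macrophage markers were called higher in the same comparison, the 2 WT sums of 2199 and 2267 standing against 31273 and 28760 in KO. Of 7 fibroblast and progenitor markers 5 were higher, of 6 endothelial markers 2 were higher, and 8 of 9 adipocyte markers were lower. The part of these cell types in the rises of the interferon-related genes was not tested.

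The Ifit cluster on chromosome 19 split. Ifit1 (ENSMUSG00000034459, chr19:34640871-34650009), which binds viral RNA that lacks the cap methylation of the host, read 145 and 160 in WT HFD and 885 and 1055 in KO HFD, 6.31-fold higher in KO (limma adjusted p = 1.8e-06). Ifit3, a partner that stabilizes Ifit1, read 308 and 238 in WT and 130 and 163 in KO, and was lower by a log2 difference of -0.89 (SE 0.28, limma adjusted p = 0.025). Ifit3b, its near copy, read 109 and 142 against 55 and 37 (log2 difference -1.44, SE 0.41, limma adjusted p = 0.017). Thus Ifit1 and its neighbours Ifit3 and Ifit3b were called in opposite directions, and all 3 windows printed above hold the ISRE letters. Reads that aligned to several places were not counted, so the values of Ifit3 and Ifit3b and their division are uncertain. Ifit2 read 290 and 348 against 337 and 532, with overlapping groups. With libraries scaled to the same total, Ifit3 and Ifit3b kept the direction and lost the call (adjusted p = 0.21 and 0.069). Both calls were also lost without the second WT HFD library and when this pair counted as 1 sample, that of Ifit3 also without the first WT HFD or the first KO HFD library, and that of Ifit3b without the second KO HFD library.

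The other genes called lower on HFD were Ifi27 and Stat5b. Ifi27, a mitochondrial protein also known as ISG12, read 3041 and 3170 in WT and 1966 and 1139 in KO (log2 difference -1.05, SE 0.23, limma adjusted p = 0.0041). Its relative Ifi27l2a read 4410 and 4625 in WT HFD and 7701 and 4121 in KO HFD and was not called there. Among the windows found, ISRE letters stood in those of 15 of 23 genes called higher, 2 of 3 called lower and 10 of 28 not called. GAS letters stood in those of 4 of 23 called higher, 0 of 3 called lower and 11 of 28 not called.

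The immunity-related GTPases stood higher in KO on HFD, 3 of 4 being called. Irgm1, which guards membranes of the host from its effector relatives, read 558 and 474 in WT and 1312 and 1507 in KO. Igtp, also named Irgm3, read 239 and 294 against 653 and 574. Ifi47, the remaining one of those called, read 20 and 57 against 139 and 192 (log2 difference 2.24, SE 0.46, limma adjusted p = 0.0025). Irgm2 read 459 and 495 against 723 and 570, without overlap and without a call. Of the interferon-induced transmembrane proteins, which hinder virus entry at endosomes, Ifitm1 (13 and 12 against 60 and 66) and Ifitm3 (323 and 293 against 441 and 660) were called higher, and Ifitm2 (321 and 264 against 237 and 271) overlapped.

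**Figure D2:**
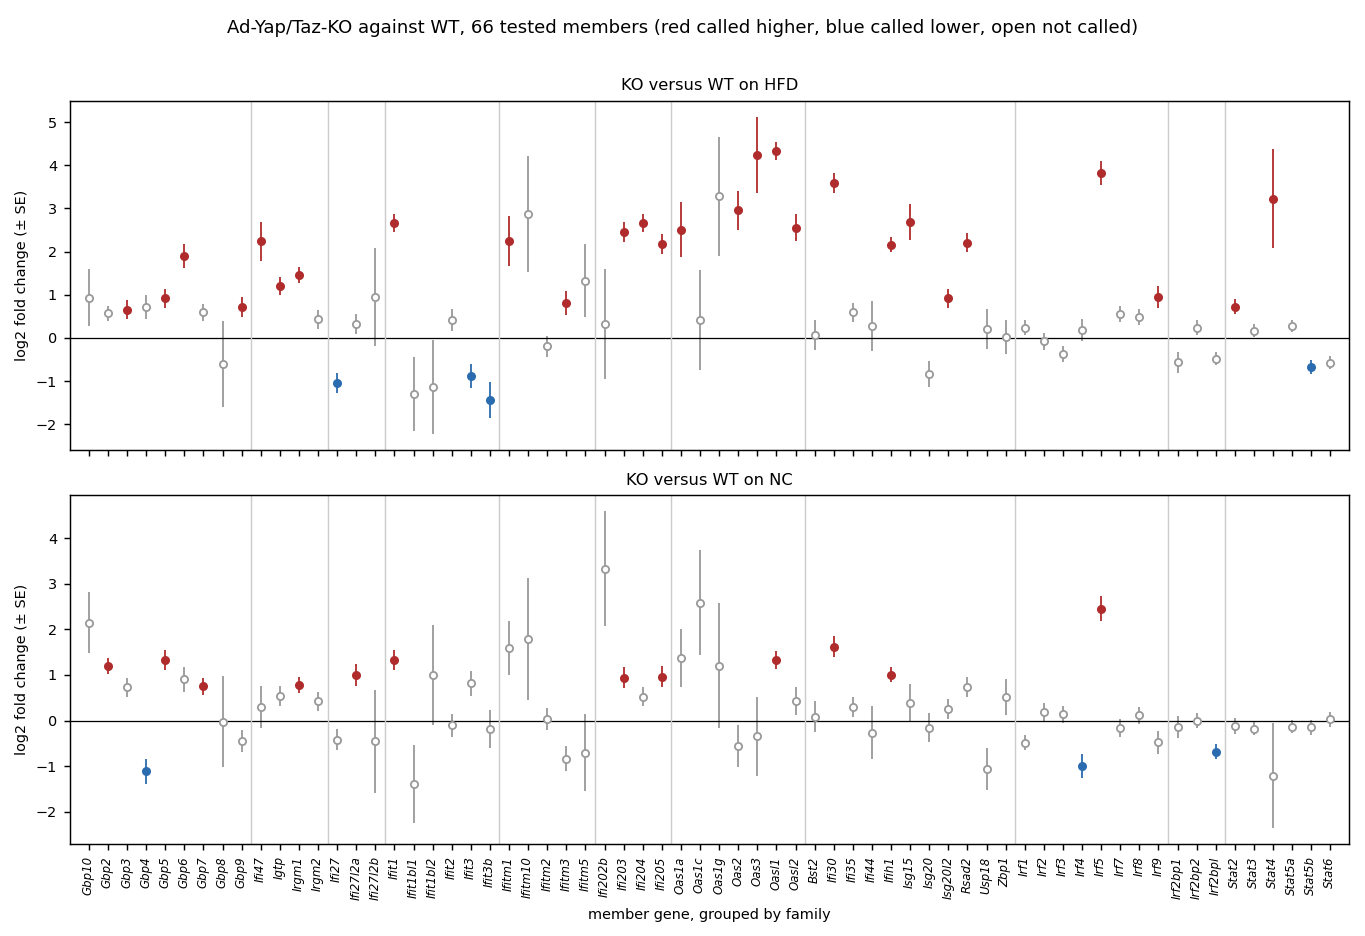
Log2 fold change of Ad-Yap/Taz-KO against WT, with its SE from limma, for 66 of the 68 tested members grouped by family (horizontal axis), on HFD (top) and on NC (bottom). Filled red points were called higher, filled blue points lower, and open points were not called, which leaves 27 red and 4 blue points on HFD and 12 red and 3 blue points on NC.

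The count on HFD depended on the WT libraries. With the mean of both WT HFD libraries as 1 sample, 20 members were called, 19 higher and 1 lower, and without the second WT HFD library 18 were called. Scaling to the same total moved the median of all genes from 0.095 to 0.467 and that of the members from 0.625 to 1.01, and gave 39 higher and 1 lower call, while the calls over all genes went from 3213 higher and 2840 lower to 4618 and 1367. Of the 19 calls checked under the alternatives, 13 held under all 17, namely those of Oasl1, Irf5, Ifi30, Oas2, Isg15, Ifi204, Ifit1, Oasl2, Ifi203, Ifi47, Rsad2, Ifi205 and, in the lower direction, Ifi27. Of 97 member calls over all comparisons, none turned direction under this scaling, and 11 were lost.

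On NC fewer members differed, and the rises again included Irf5, Ifi30, Oasl1 and Ifit1. Gbp2, Gbp5 and Gbp7 of chromosome 3 and Ifi27l2a were called higher too. In this comparison 12 of 68 members were called higher and 3 lower in KO, where 4.71% of all genes were called, 3.21% higher and 1.5% lower. The median log2 difference was 0.163 over the members and -0.014 over all genes. The 9 members called in both genotype comparisons were higher in KO on both diets. Of all genes tested, 664 (3.53%) were called in both, 641 of them in the same direction and 470 (2.5%) higher in KO on both diets.

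Irf5 read 83 and 85 normalized counts in WT NC and 575 and 376 in KO NC, a 5.48-fold difference (log2 2.45, SE 0.27, limma adjusted p = 0.00016). Ifi30 read 337 and 300 against 1139 and 840 (log2 difference 1.62, SE 0.23, limma adjusted p = 0.00096). For Oasl1 the values were 364 and 427 against 1143 and 864 (log2 difference 1.33, SE 0.20, limma adjusted p = 0.0014). The groups did not overlap for any of the 3 genes. Ifit1 read 226 and 243 against 679 and 514 and Ifih1 1301 and 1593 against 3207 and 2605, both higher in KO (limma adjusted p = 0.0022 and 0.0032). Ifi27l2a, a short relative of Ifi27, read 7957 and 8460 in WT NC and 18623 and 14366 in KO NC (log2 difference 1.00, SE 0.24, limma adjusted p = 0.032). Ifi203, Ifi205, Irgm1 and 3 Gbp genes make up the remaining rises.

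The members called lower in KO on NC were Gbp4, Irf4 and Irf2bpl, and none of them was called in that direction on HFD. Irf2bpl, a nuclear protein related to Irf2bp1 and Irf2bp2, read 2242 and 1864 in WT NC and 1185 and 1372 in KO NC (log2 difference -0.68, SE 0.16, limma adjusted p = 0.028). The marker sums of macrophages were 4848 and 4783 in WT NC against 29030 and 16076 in KO NC, with 9 of 10 markers called higher and Itgam, a defining marker, at 65 and 66 against 470 and 287. Endothelial sums were 26842 and 21621 against 20412 and 11316, with no marker called, and no adipocyte marker was called. Their part in these differences was not tested.

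The count of 15 on NC fell to 7 without the first WT NC library, 6 without the second, 7 without either WT HFD library and 7 with both WT HFD libraries taken as 1 sample, and to 9 when only the 2 NC groups were fitted. Scaled to the same total, 9 members were called higher and 1 lower. The calls of Gbp2, Ifi30, Ifit1, Irf5 and Oasl1 held under all 17 alternatives, whereas 8 calls were lost under 8 or more of them. These were the rises of Gbp7 and Ifi203 (11 each), Ifi205 (10), Irgm1 (9) and Ifi27l2a (8) and the falls of Irf4 (12), Gbp4 (11) and Irf2bpl (9).

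The Gbp genes lie in clusters on chromosomes 3 and 5, with 5 members in each. On chromosome 3, Gbp2, a large GTPase strongly induced by interferon gamma, read 3701 and 3077 in WT NC, 6848 and 8838 in KO NC, 2695 and 2413 in WT HFD and 4166 and 3420 in KO HFD. It was higher in KO on NC (log2 difference 1.20, SE 0.17, limma adjusted p = 0.0011) and, on HFD, by 0.57, short of the 0.59 needed. Gbp5, which promotes inflammasome assembly, read 1487 and 925, 2498 and 3439, 787 and 698, and 1415 and 1378 in the same order of groups, and was called higher in KO on both diets. Gbp7 was called higher on NC (986 and 689 against 1355 and 1426). Gbp3 was called higher on HFD (478 and 523 against 798 and 779). In each of these genes the KO NC libraries held the highest values of all 4 groups.

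Gbp4, on chromosome 5 (chr5:105115767-105139586), ran the other way on NC. It read 843 and 783 in WT NC, 481 and 292 in KO NC, 398 and 363 in WT HFD and 468 and 827 in KO HFD, and was lower in KO on NC (log2 difference -1.11, SE 0.28, limma adjusted p = 0.039). Gbp9 read 1151 and 821 in WT NC and 852 and 596 in KO NC, with overlap, and 529 and 455 in WT HFD against 689 and 950 in KO HFD, where it was called higher. Gbp6 read 268 and 180, 340 and 497, 87 and 102, and 406 and 306, and was called higher on HFD. The chromosome 5 genes thus did not share one pattern. Exons of another gene on the same strand cover 29.0% of Gbp6 and 46.3% of Gbp10, and reads over several genes were not counted. The Gbp genes are close paralogs, so the split between them is uncertain. The 6 endothelial markers summed to 26842 and 21621 in WT NC, 20412 and 11316 in KO NC, 13537 and 14080 in WT HFD and 17885 and 27824 in KO HFD, and the second KO HFD library was the higher of its pair in this sum, in Gbp4 and in Gbp9. Their part in these values was not tested.

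**Figure D3:**
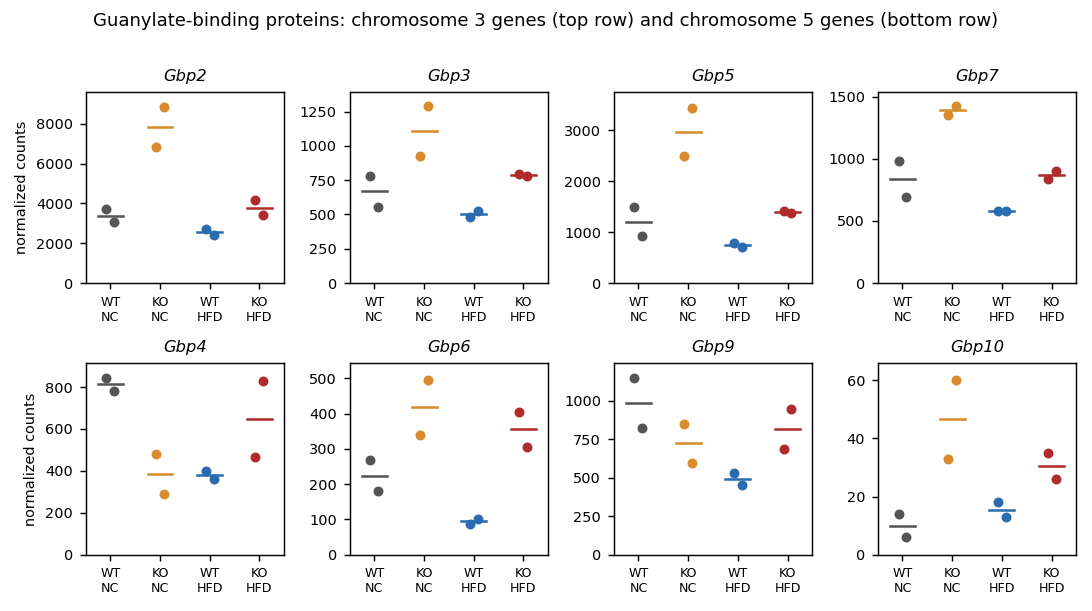
Normalized counts (vertical axes, from 0) of 8 guanylate-binding protein genes in the 8 libraries, with points for libraries and lines for group means. Genes of chromosome 3 (top row) are highest in Ad-Yap/Taz-KO libraries on NC, whereas Gbp4 and Gbp9 of chromosome 5 (bottom row) have their highest value in a WT library on NC.

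In the WT libraries, many members were lower on HFD than on NC. Of the 68, 24 were called lower on HFD than on NC and 2 higher, where 18.0% of all genes were called, 9.22% lower and 8.74% higher. The median log2 difference was -0.579 over the members and -0.078 over all genes. Antiviral genes (Oasl1, Oas2, Oasl2), the PYHIN genes Ifi203 and Ifi204, immunity-related GTPases and the regulators Irf1 and Irf4 were among those lower. WT HFD libraries serve in this comparison and in that of the genotypes on HFD.

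Irf1, an early regulator induced by interferons, fell from 17033 and 13257 normalized counts on NC to 5293 and 5338 on HFD (log2 difference -1.50, SE 0.17, limma adjusted p = 0.00028). Irf4 fell from 1946 and 1301 to 391 and 398 (log2 difference -2.01, SE 0.26, limma adjusted p = 0.00058). Ifi204 went from 1241 and 1179 to 269 and 274 (log2 difference -2.15, SE 0.21, limma adjusted p = 0.0001). On NC and HFD the libraries of these genes did not overlap. Oas2 went from 80 and 70 to 17 and 12 (limma adjusted p = 0.0058), Oasl1 from 364 and 427 to 141 and 116 (limma adjusted p = 0.00045) and Ifi47 from 116 and 110 to 20 and 57 (limma adjusted p = 0.022). Irgm1 went from 1340 and 1063 to 558 and 474 (limma adjusted p = 0.0013).

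Ifit3 and Stat6 were the members called higher on HFD in WT. Ifit3 rose from 111 and 91 to 308 and 238 (log2 difference 1.42, SE 0.28, limma adjusted p = 0.0053). Stat6, the factor activated by interleukin-4 and interleukin-13, rose from 1492 and 1949 to 3059 and 3302 (log2 difference 0.90, SE 0.16, limma adjusted p = 0.0037). Scaled to the same total, the rise of Stat6 was 0.48 and lost its call (limma adjusted p = 0.053). That scaling moved the median of all genes from -0.078 to -0.476 and that of the members from -0.579 to -0.988, with 38 members lower and 1 higher and, over all genes, 3568 lower and 470 higher in place of 1734 and 1643. The macrophage sums were 4848 and 4783 on NC and 2199 and 2267 on HFD, 9 of 10 markers being called lower, and 3 of 6 endothelial and 3 of 7 fibroblast markers were lower. Their part in the lower values was not tested. The count of 26 was 7 without the first WT NC library, 10 and 9 without the first and the second WT HFD library, and 7 with both WT HFD libraries taken as 1 sample, and 6 of the calls checked (Ifi203, Ifi204, Irf1, Irf4, Irgm1 and Oasl1) held under all 17 alternatives.

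In the KO libraries, 2 members were called higher on HFD than on NC and 3 lower, where 1.07% of all genes were called, 0.383% higher and 0.691% lower. The median log2 difference was -0.005 over the members and 0.034 over all genes. Oasl1 rose from 1143 and 864 to 2723 and 2467 (log2 difference 1.38, SE 0.20, limma adjusted p = 0.0093). Ifih1 rose from 3207 and 2605 to 4863 and 5178 (log2 difference 0.80, SE 0.17, limma adjusted p = 0.043), a call lost under 12 of 17 alternatives, the same total among them (limma adjusted p = 0.057). Gbp2, Gbp5 and Ifi27l2a fell, Ifi27l2a from 18623 and 14366 to 7701 and 4121 (log2 difference -1.54, SE 0.24, limma adjusted p = 0.012). So Oasl1 went down with HFD in WT and up in KO. The macrophage sums of 29030 and 16076 on NC and 31273 and 28760 on HFD overlapped, with 1 of 10 markers called higher. The fibroblast and progenitor sums of 50222 and 31884 on NC and 68291 and 76488 on HFD did not overlap, with 2 of 7 markers called higher, nor did the adipocyte sums of 245795 and 320900 against 173425 and 93474, with 1 of 9 called lower. The part of these cell types was not tested. The number of calls depended on single libraries. It was 0 without the second KO NC library (15 members had an unadjusted limma p under 0.05), 10 without the first, 9 without the first KO HFD library, 2 without the second, 1 without either WT HFD library or with these as 1 sample, and 0 when only the KO groups were fitted (22 members with an unadjusted p under 0.05). Scaling to the same total gave 1 higher and 3 lower. Of the 5 calls, 0 held under every alternative, and that of Oasl1 was lost under 3 of 17.

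**Figure D4:**
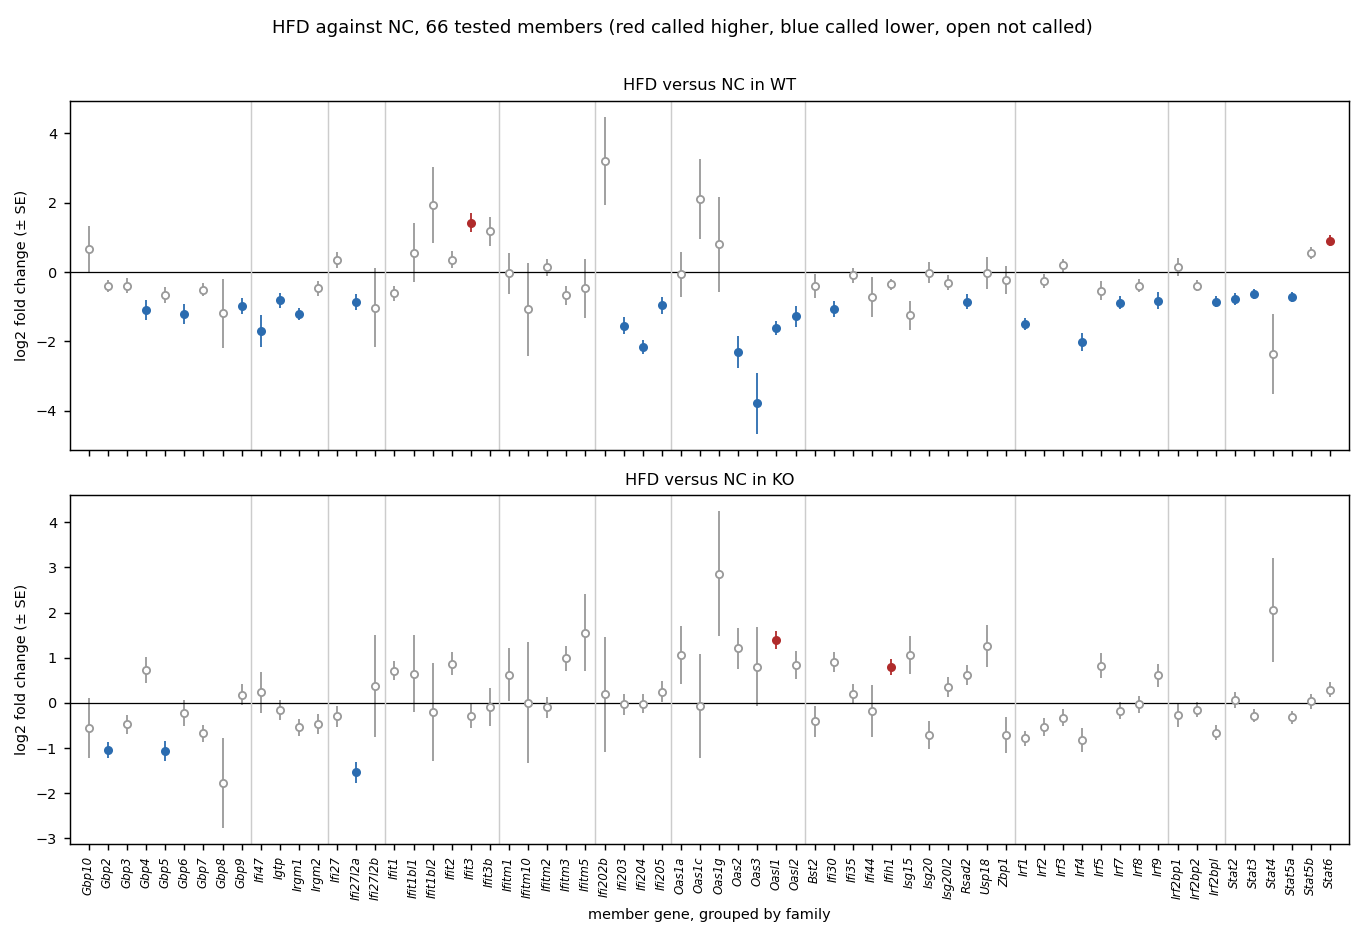
Log2 fold change of HFD against NC, with its SE from limma, for 66 of the 68 tested members grouped by family (horizontal axis), in WT (top) and Ad-Yap/Taz-KO libraries (bottom). In WT 24 members were called lower (blue) and 2 higher (red), and in KO 3 were called lower and 2 higher.

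The difference between the genotypes changed with diet for 20 of the 68 members, 19 with a larger difference of KO over WT on HFD and 1 with a smaller one, by the interaction term of the same fit. Over all genes 17.4% were called, 8.69% in the first direction and 8.73% in the second. Where the mean across libraries reached 50, 19 of 53 members (35.8%) and 24.6% of all genes were called. The median of the term was 0.66 over the members and 0.098 over all genes. Scaled to the same total, these medians were 1.072 and 0.515, with 28 members called in the first direction and 0 in the second, against 2611 and 619 of all genes in place of 1633 and 1641. Its highest values among well expressed members were those of Oas2, at 3.52 (SE 0.65, limma adjusted p = 0.0063), and Oasl1, at 3.0 (SE 0.28, limma adjusted p = 0.00044). Ifit3 was the exception, at -1.71 (SE 0.39, limma adjusted p = 0.014), since KO was above WT on NC (187 and 169 against 111 and 91) and below it on HFD. This call was lost under 5 of 16 alternatives, among them the same total (-1.28, limma adjusted p = 0.054), either WT NC library left out and both WT HFD libraries as 1 sample. The 10 macrophage markers all passed the same interaction test in the direction of the 19, as did 5 of 6 endothelial and 6 of 7 fibroblast markers, and 8 of 9 adipocyte markers passed in the other. Their part in the interaction was not tested. The count of 20 was 5 without the first WT NC library, 12 without the second KO NC library, 8 without either WT HFD library, 13 without the second KO HFD library and 5 with both WT HFD libraries taken as 1 sample, whereas Ifi204, Ifi30, Oas2 and Oasl1 held under all alternatives.

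The IRFs and STATs are the regulators among the members, and their levels can be ordered per length of exon. In WT NC the order per kb of exon, by group mean, began with Irf1 at 3810 normalized counts per kb, followed by Stat3 at 1100, Stat5a at 422, Stat6 at 391 and Irf4 at 331. Stat2 (238), Irf2 (210), Stat5b (174), Irf9 (157), Irf7 (127), Irf3 (108) and Irf8 (98.4) came next, and Irf5 at 28.9 and Stat4 at 3.87 had lower levels. Irf1 and Stat3 stood clear of their neighbours in both WT NC libraries, at 4284.0 and 3334.3 and at 1129.8 and 1076.6 per kb. From Stat5a to Irf4 the libraries of neighbours overlapped. In KO HFD the mean of Irf5 was 287 per kb, above those of Stat2 (229) and Irf9 (177), with Irf1 still first at 1570.

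**Figure D5:**
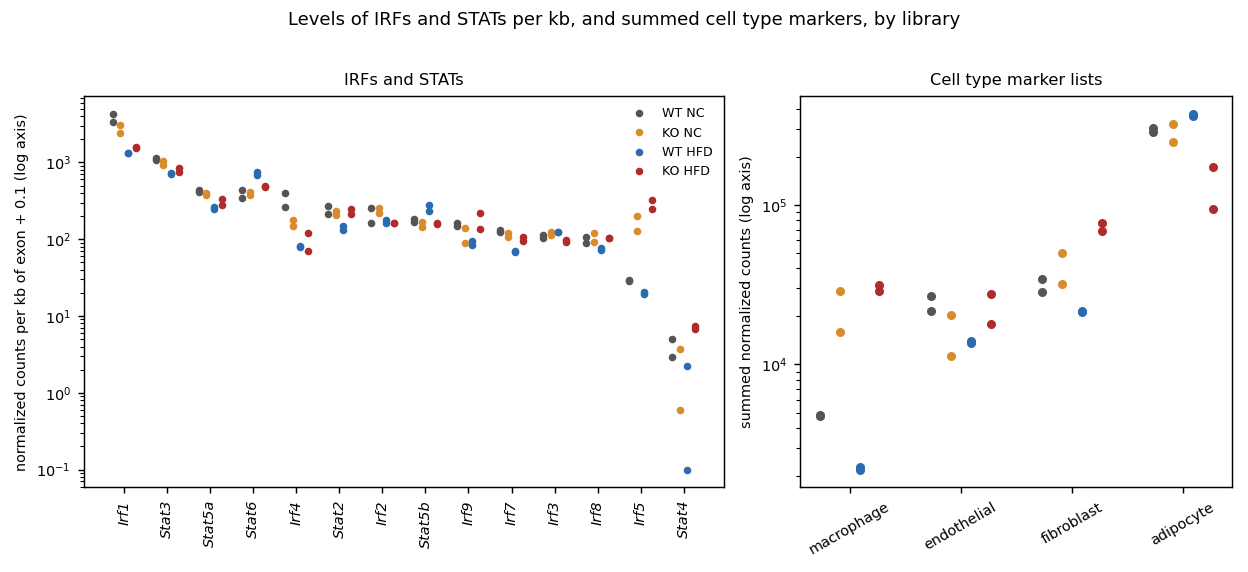
Left, normalized counts per kb of exon plus 0.1 (log axis) of 14 IRF and STAT members in each library, ordered by the WT NC mean; right, summed normalized counts (log axis) of macrophage, endothelial, fibroblast and adipocyte marker lists in each library. Colours stand for the 4 groups; Irf5 and the macrophage sum both separate the 4 KO libraries from the 4 WT libraries.

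Among the IRFs, Irf5 and Irf9 were called higher in KO on HFD and none lower. Irf9, the DNA-binding partner of Stat2, read 506 and 449 in WT and 726 and 1176 in KO (log2 difference 0.95, SE 0.25, limma adjusted p = 0.012). Its call was lost without either WT HFD library and without the second KO HFD library. Irf7, the amplifier of type I interferon production, read 255 and 264 against 355 and 408, with a log2 difference of 0.55 (SE 0.19, limma adjusted p = 0.043) that fell short of the size needed. Irf8, a factor of myeloid cells, read 547 and 503 against 732 and 733 (log2 difference 0.48, limma adjusted p = 0.065). Irf1 read 5293 and 5338 against 6095 and 6382 (log2 difference 0.23, limma adjusted p = 0.33). Irf3, which is activated by phosphorylation rather than by its level, read 422 and 422 against 335 and 314, a log2 difference of -0.38 that was 0.01 when scaled to the same total. Irf2, a repressor at ISREs, read 1314 and 1217 against 1195 and 1194, and its difference of -0.08 became 0.30 with that scaling. Irf4 read 391 and 398 in WT HFD and 339 and 593 in KO HFD, overlapping, after 1946 and 1301 in WT NC and 723 and 871 in KO NC, where KO was lower by a log2 difference of -1.0 (SE 0.26, limma adjusted p = 0.046).

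Among the STATs, Stat2 was higher in KO on HFD, at 868 and 774 in WT and 1253 and 1463 in KO (log2 difference 0.72, SE 0.17, limma adjusted p = 0.0067), a call lost without the second WT HFD library and with both as 1 sample. Stat5b, which with Stat5a mediates growth hormone and prolactin signals, read 1289 and 1533 against 887 and 883 (log2 difference -0.67, SE 0.17, limma adjusted p = 0.008), and scaled to the same total the difference was -0.28 and lost its call (limma adjusted p = 0.2). Stat5a read 1788 and 1854 against 2015 and 2406 (log2 difference 0.27, limma adjusted p = 0.17). Stat6 read 3059 and 3302 against 2196 and 2085 (log2 difference -0.57, SE 0.16, limma adjusted p = 0.016), short of the size needed. Stat3, the factor of interleukin-6 and leptin signals, read 6861 and 6699 against 7243 and 7983 and was not called. Stat4 was called at 8 and 0 against 26 and 28, a call lost under 10 of 16 alternatives. No STAT was called between the genotypes on NC.

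In WT, Irf1, Irf4, Irf7, Irf9, Stat2, Stat3 and Stat5a were called lower and Stat6 higher on HFD than on NC. Irf7 went from 496 and 462 to 255 and 264 (log2 difference -0.88, limma adjusted p = 0.0094) and Irf9 from 879 and 810 to 506 and 449 (log2 difference -0.82, limma adjusted p = 0.039), a call of Irf9 that was lost under 8 of 17 alternatives, each WT library left out among them. Stat2 went from 1579 and 1246 to 868 and 774 (log2 difference -0.77, limma adjusted p = 0.01). Stat5a fell by 0.73 on the log2 scale, from 3097 and 2927 to 1788 and 1854 (limma adjusted p = 0.0067). In Stat3 the difference was -0.63 (limma adjusted p = 0.012), from 10764 and 10257 to 6861 and 6699. The calls of Irf7, Stat2, Stat5a and Stat6 were lost under 4 of 17 alternatives each and that of Stat3 under 5, in all of them when the WT HFD pair counted as 1 sample. In KO no IRF or STAT was called between the diets.

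The rest of the pathway was read from lists of genes outside the name rule. Of 21 interferon genes 6 were in the table, and their sum was 4 and 9 normalized counts in WT NC, 26 and 53 in KO NC, 9 and 8 in WT HFD and 22 and 44 in KO HFD. Ifnb1 read 2 and 7 in WT NC, 12 and 10 in KO NC, 4 and 0 in WT HFD and 11 and 15 in KO HFD, and Ifng read 0 to 4. Ifnb1 and Ifnk were tested, and neither was called in any comparison. Of the receptor genes, Ifngr1 was lower in KO on HFD (2420 and 2281 against 1223 and 1398, log2 difference -0.85, SE 0.15, limma adjusted p = 0.0011) and Il10rb, a subunit of the interferon lambda and interleukin-10 receptors, was higher (499 and 470 against 923 and 866, log2 difference 0.88, SE 0.21, limma adjusted p = 0.0064). Ifnar1 (1210 and 1166 against 1353 and 1279) and Ifnar2 (749 and 874 against 827 and 823) were not called. The kinases Jak1, Jak2 and Tyk2 were called in no comparison.

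Of 7 genes that brake the pathway, 3 were called higher and 1 lower in KO on HFD. Ptpn6 (SHP-1), a phosphatase of blood cells, read 30 and 8 against 523 and 537. Socs1, an inhibitor of the receptor kinases, read 52 and 102 against 158 and 150, and Cish, an inhibitor of Stat5 signals, read 236 and 242 against 400 and 482. Ptpn11 (SHP-2) was lower, at 6778 and 6927 against 3275 and 2440. Of 16 tested genes for nucleic acid sensors and adaptors, Ifih1 among them, 11 were called higher and 1 lower in KO on HFD and 4 higher and 0 lower on NC (these calls are from limma). Of 49 tested interferon-induced genes outside the name rule, 20 were higher and 3 lower on HFD, 4 higher and 1 lower on NC, and 2 higher and 13 lower in WT on HFD against NC. Their median log2 difference on HFD was 0.629, beside 0.625 in the members and 0.095 over all genes. Of all genes tested, 17.1% were called higher and 15.1% lower in KO on HFD, and 3.21% and 1.5% on NC. In WT on HFD against NC, 8.74% of all genes were called higher and 9.22% lower.

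Markers of other immune cells varied in level. Siglech, of plasmacytoid dendritic cells, read 0 to 3, Cd3d of T cells 0 to 5 and Ncr1 of NK cells 0 to 4. The sum of 10 T and NK cell markers was 58 to 275, with 1 of 6 tested markers higher in KO on HFD. This was Cd4, at 28 and 18 in WT HFD and 82 and 200 in KO HFD (log2 difference 2.46, SE 0.52, limma adjusted p = 0.0032). The 5 plasmacytoid dendritic cell markers summed to 3477 to 5744, of which Tcf4 made up 2810 to 4866. The sum of macrophage markers, given above, was larger in KO than in WT on both diets, and that of 5 neutrophil markers was 12 to 80, with 1 of 3 higher. Among dendritic cell markers Itgax was called, 1 of 6 in the list, at 67 and 52 in WT HFD and 1237 and 896 in KO HFD. None of the plasmacytoid dendritic cell markers was called higher on HFD, Irf8 and Bst2 being in that list too.

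Of the members, 26 were called in no comparison. Among them were Irf2, Irf3, Irf8, Ifit2, Ifitm2, Irgm2, Irf2bp1, Irf2bp2, Bst2, Usp18 and Zbp1, a sensor of Z-form nucleic acid that can start necroptosis, at 184 and 78 in WT HFD and 107 and 140 in KO HFD. Another 5 members (Gbp2b, Ifitm6, Ifitm7, Oas1e and Oas1h), at 0 to 10 in each library, fell below the mean of 5 needed for the test, and Oas1g passed it only through its highest group. The same name patterns match 3 genes that are not protein_coding and were left out: Gbp11 (752 and 117 in WT NC), Oas1b and Gbp2-ps.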

How the data were processed

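Single-end libraries were made from total RNA after ribosomal depletion (SMARTer Stranded kit). The authors trimmed reads with Reaper, aligned them to GRCm38/mm10 with STAR 2.5.2b and counted reads on exons with featureCounts 1.5.1, leaving out reads over several genes or places; DESeq2 1.14.1 and FastQC also stand in the submitters' processing notes. The deposited values are a score here: the authors' gene counts after division by a library size factor, rounded to integers, so whole reads could not be recovered for each gene and no count test was run. Reads carry no molecular identifiers, so limits for a value of 0 cover counting error only.

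The members and gene lists were chosen with earlier results of these data known, and 2 members that count in the totals are not reported here. The 18800 of 30387 genes whose mean reached 5 across the 8 libraries were tested with limma 3.58.1 in R 4.3.3 (lmFit, contrasts.fit, eBayes with trend) on log2(value + 1), a scale that understates changes of low genes, in 1 fit of the 4 groups (degrees of freedom: residual 4, prior 8.59). An exact permutation test of 2 against 2 libraries cannot go below p = 0.333 (two-sided), so the p-values rest on spread pooled over genes. The study describes 2 mice per group. Named with a fold change were IRFs, STATs and, in each comparison, up to 12 rises and 12 falls among called members with a mean of at least 50. Oas3 falls outside this rule and was chosen after its values were seen. Also outside it are the difference of Gbp2 on HFD and the interaction terms of Ifit1, Ifi205, Gbp9 and Ifih1. Overlaps and exon lengths came from GENCODE vM21, start-site windows from RefSeq. Python 3.11.15, numpy 2.4.6, pandas 2.3.3 and matplotlib 3.10.9 were used. Alternatives were other pseudocounts (0.1 and 8), filters (none, and a mean of at least 50) and scalings (same total, upper quartile), a fit of the compared groups alone, the replicate number as a block, the WT HFD libraries as 1 sample and each library left out.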

Additional observations from a re-analysis of the deposited data

Results flagged for a closer look

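The interaction of genotype and diet was called for 19 of 53 members with a mean of at least 50 (35.8%), beside 24.6% of all genes with that mean, meaning that the log2 difference between KO and WT on HFD differed from that on NC by a test of the difference itself (limma adjusted p of at most 0.05). Among antiviral effectors the term was 3.52 for Oas2, 3.0 for Oasl1, 2.12 for Oasl2, 2.30 for Isg15, 1.47 for Rsad2, 1.33 for Ifit1, 1.65 for Ifitm3 and -1.71 for Ifit3. Ifit3 was the one member of the 19 with a negative term, a call lost under 5 of 16 alternatives, and scaled to the same total (-1.28, limma adjusted p = 0.054) no member was called with a negative term. Among sensors and PYHIN genes it was 1.16 for Ifih1, 2.14 for Ifi204, 1.51 for Ifi203 and 1.21 for Ifi205. It was 1.97 for Ifi30, 1.82 for Gbp4 and 1.17 for Gbp9. Of the regulators, Irf9 stood at 1.43, Irf5 at 1.37, Irf4 at 1.19 and Stat2 at 0.84. For Irf5 and Ifi30 the KO libraries were above the WT libraries on both diets, so a difference was already present on NC. For Gbp4 and Irf4 KO was called lower than WT on NC and not on HFD. Of the 15 terms checked under 16 alternatives, those of Ifi204, Ifi30, Oas2 and Oasl1 kept their call under all, and the call was lost under 10 for Irf4, 9 for Irf5, 8 each for Irf9 and Stat2, 7 each for Isg15 and Ifitm3, 5 each for Ifi203 and Rsad2, 4 for Gbp4 and 1 for Oasl2. With 2 libraries a group, no single library could be tested as an outlier.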

How the results depend on the processing

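The number of members called in KO against WT on HFD was 31 and became 20 when both WT HFD libraries counted as 1 sample, and 18 to 34 with 1 library left out. On NC it was 15 and became 7 without a filter, 9 with only the groups compared and 7 when both WT HFD libraries counted as 1 sample, and 6 to 16 with 1 library left out. For HFD against NC in WT, 26 became 7 when both WT HFD libraries counted as 1 sample, and 7 to 30 with 1 library left out. In KO, 5 became 3 with a pseudocount of 0.1, 0 without a filter (26 members at an unadjusted limma p under 0.05), 0 with only the groups compared (22 such members) and 1 when both WT HFD libraries counted as 1 sample, and 0 to 10 with 1 library left out. The interaction count of 20 became 8 without a filter and 5 when both WT HFD libraries counted as 1 sample, and 5 to 22 with 1 library left out. The cause of these moves was not tested, beyond the smaller number of libraries where one was left out.

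The replicate numbers did not pair the libraries, the correlations between groups of the difference of replicate 1 and 2 being -0.3 to 0.108. With the replicate block the counts were 30, 9, 25, 3 and 18 in the order above.

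The results followed were the largest called rises and falls of each comparison and all IRFs and STATs. Uncalled members of other families were not followed. No called result turned direction, and the uncalled IRFs and STATs that did are given as log2 differences. Scaling to the same total gave 0.30 for Irf2 and 0.0059 for Irf3 in KO against WT on HFD, -0.22 for Irf3 in HFD against NC in WT, -0.0126 for Stat6 in KO against WT on NC, and 0.16 for Irf2 in the interaction. Upper-quartile scaling gave -0.0234 for Stat6 on NC. With 1 library left out the values spanned 0: on HFD -0.22 to 0.59 for Irf4; on NC -0.13 to 0.51 for Irf2, -0.0806 to 0.30 for Irf8, -0.28 to 0.0584 for Stat2 and -0.16 to 0.22 for Stat6; in WT -0.58 to 0.0553 for Irf2; in KO -0.22 to 0.17 for Irf8, -0.0504 to 0.17 for Stat2 and -0.0807 to 0.14 for Stat5b; and in the interaction -0.59 to 0.0456 for Irf2. Depth limits members under the 2.39 to 3.4 normalized counts that 3 reads are worth.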
